A study of Homo sapiens with 10 samples.

Results

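The genes described are 3 ligands of the fibroblast growth factor (FGF) family, *FGF9*, *FGF2* and *FGF19*, the FGF binding protein *FGFBP1*, the receptors *FGFR1*, *FGFR2*, *FGFR3* and *FGFR4*, and the receptor-like gene *FGFRL1*. They were chosen by name, with the differences measured in both experiments below already known, so these differences are given for the 9 genes as a description without p-values. All 9 had values in both deposited tables, among 13029 genes in one and 17642 in the other, and all 9 passed the filter on low values used in the second. RNA-seq was performed from HCT116, a human colorectal cancer cell line grown without drug treatment. In the first experiment 3 *ZMAT3*-WT libraries were compared with 3 *ZMAT3*-KO libraries, to find the RNAs that depend on the RNA-binding protein ZMAT3. Both sets came from single-cell clones that had been electroporated with Cas9 and guide plasmids and selected with puromycin. The *ZMAT3*-KO libraries stand for 1 clone, made with guides flanking the p53 response element in an intron of *ZMAT3*. Per the paper the region between the guides was not fully deleted, and *ZMAT3* RNA was reduced and not absent. Clone and genotype cannot be told apart, and the number of *ZMAT3*-WT clones is not stated. In the second experiment 2 libraries of cells transfected with a control siRNA (siCTRL) were compared with 2 libraries of cells transfected with a pool of 4 siRNAs against p53 (sip53) for 72 hr, to find the RNAs that depend on p53.

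Most FGFs are secreted proteins that bind receptor tyrosine kinases at the cell surface, together with heparan sulfate chains or a Klotho protein. The activated receptor phosphorylates the adaptor FRS2 and switches on the RAS/ERK pathway, whose feedback inhibitors include the Sprouty proteins and DUSP6. FGF9 and FGF2 act near the cells that make them and bind heparan sulfate tightly, whereas FGF19 is made in the ileum, circulates, and acts on the liver through FGFR4 and beta-Klotho to limit bile acid synthesis. FGFBP1 carries FGFs from their stores in the matrix to the receptors. FGFRL1 binds FGFs but lacks the tyrosine kinase domain of the other receptors.

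The genes lie on 6 chromosomes of hg38 (GENCODE release 44). *FGFRL1* (1009936 to 1026898), *FGFR3* (1793293 to 1808872), *FGFBP1* (15935577 to 15938740, minus strand) and *FGF2* (122826682 to 122898236) are on chromosome 4. *FGFR4* is on chromosome 5 (177086905 to 177098144), *FGFR1* on chromosome 8 (38400215 to 38468834, minus strand) and *FGFR2* on chromosome 10 (121478332 to 121598458, minus strand). *FGF19* is on chromosome 11 (69698238 to 69704022, minus strand) and *FGF9* on chromosome 13 (21671073 to 21704498). Of these loci, that of *FGF2* overlaps the antisense gene *NUDT6* over 9540 bases, and that of *FGFR1* overlaps *LETM2* on the opposite strand over 9313 bases. The paper describes stranded libraries for the *ZMAT3* experiment only, and whether reads were counted by strand is not stated for either, so reads of these pairs may have been mixed.

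The values of the first experiment are log2 CPM, counts scaled to library size but not to gene length, and those of the second were read as FPKM, which are scaled to both. No read counts were used, so library depth is unknown. The linear values summed to 999929 to 999931 in the *ZMAT3* libraries, which share one distribution, and to 708634 to 829230 in the siRNA libraries. Replicates correlated across genes (which are no replicates themselves) with a Pearson's r of 0.995 or more in the first experiment and 0.972 or more in the second. *ZMAT3* was 7.43-fold lower in the *ZMAT3*-KO libraries (limma adjusted p = 3.76e-12). *CDKN1A*, the gene of a cell cycle inhibitor, was 14-fold lower with sip53 (limma adjusted p = 0.00869). *ZMAT3* was also lower with sip53, by 4.96-fold (limma adjusted p = 0.067). In the *ZMAT3*-KO libraries *CDKN1A* was 1.44-fold lower (limma adjusted p = 2.02e-08). Of 10 colon epithelial markers 6 had values in the *ZMAT3* table, and their summed level was 5757 to 6083 CPM in *ZMAT3*-WT and 3160 to 3242 CPM in *ZMAT3*-KO libraries. *KRT8* was the highest, and *CDX1*, *LGALS4*, *TSPAN8* and *VIL1* had no value there. In the siRNA libraries 7 of the 10 summed to 3737 to 3972 FPKM in siCTRL libraries and 3532 to 4170 FPKM in sip53 libraries. Of 10 fibroblast markers only *COL1A1* had values in the *ZMAT3* table, at 9.16 to 9.79 CPM in *ZMAT3*-WT and 10.4 to 10.9 CPM in *ZMAT3*-KO libraries. Of 10 blood and endothelial markers only *CD68* did, at 1.61 to 2.12 CPM and 3.20 to 3.88 CPM. For the siRNA libraries 2 fibroblast markers summed to 4.22 to 5.64 FPKM in siCTRL libraries and 6.12 to 7.07 FPKM in sip53 libraries. There 4 blood and endothelial markers, with *CD68* the highest, summed to 4.03 to 10.9 FPKM and 13.6 to 27.9 FPKM. The part of these markers in the results below was not tested.

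A pair of promoters is shown because *FGFBP1* and *FGFR3* are the genes called higher with sip53 that have an entry among the RefSeq promoters (GRCh38.p14). The set of RefSeq promoters used here held 11 promoters of 6 of the 9 genes, and *FGF9*, *FGF19* and *FGFR1* had no entry in that set. Each sequence covers the 250 bases before the annotated start, 5′ to 3′ on the gene's strand, at chr4:15938741-15938990 for *FGFBP1* and chr4:1793043-1793292 for *FGFR3*. Capitals mark matches to the consensus of a single p53 half-site in *FGFBP1* and to the GC box GGGCGG, on either strand, in *FGFR3*.
FGFBP1: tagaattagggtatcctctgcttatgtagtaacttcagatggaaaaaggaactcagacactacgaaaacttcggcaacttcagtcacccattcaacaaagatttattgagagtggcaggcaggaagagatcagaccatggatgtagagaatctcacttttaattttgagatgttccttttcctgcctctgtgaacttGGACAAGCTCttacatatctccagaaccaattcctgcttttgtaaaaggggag
FGFR3: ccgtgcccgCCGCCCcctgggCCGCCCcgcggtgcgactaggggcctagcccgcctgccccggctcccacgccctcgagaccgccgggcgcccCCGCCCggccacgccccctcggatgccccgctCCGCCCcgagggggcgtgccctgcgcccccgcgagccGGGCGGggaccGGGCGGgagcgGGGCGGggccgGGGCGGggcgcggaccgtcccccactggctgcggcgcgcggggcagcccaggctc
The windows differ in base composition, with a GC content of 40.8% for *FGFBP1* and 86.8% for *FGFR3*. Searched on both strands, the p53 half-site was found in 1 of the 11 promoters and in 5.57% of 35116 RefSeq promoters cut to the same length. The GC box was in 6 of the 11 promoters, none of them that of *FGFBP1*, and in 42.6% of all promoters. The E-box CACGTG was in 2 of the 11 promoters, of *FGFRL1* and *FGFR4*, and in 6.34% of all promoters. The AP-1 motif TGANTCA, the TATA box TATAAA and the CRE TGACGTCA were in 0 of the 11 promoters, and in 6.57%, 10.7% and 1.65% of all promoters. These matches describe letters and not binding.

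Among the ligands *FGF9* differed most in both experiments, and it was lower in each. In *ZMAT3*-WT cells its log2 CPM values were 0.17, 0.30 and 0.61, and in *ZMAT3*-KO cells they were -3.61, -2.99 and -4.98. The groups did not overlap, and the *ZMAT3*-KO libraries lay near the bottom of the table, whose lowest value is -6.62. The log2 difference was -4.22 (standard error 0.49). If the lowest value stands for 0 reads plus an offset of 0.5, the *ZMAT3*-KO values amount to 1.06 to 5.70 reads and the *ZMAT3*-WT values to 55 to 74.8 reads. These are approximate, since all libraries were brought to one distribution, and the size of the difference rests on a few reads. The *ZMAT3*-KO mean of -3.86 log2 CPM lies under the level of 3 reads (-3.81 log2 CPM), with 1 of the 3 libraries below it, so the fitted size is uncertain here and wherever it is given again. With a pseudocount of 1 CPM it was -1.09. After p53 knockdown *FGF9* had 2.03 and 1.79 FPKM, against 5.06 and 7.09 FPKM with siCTRL. Both sip53 libraries were lower than both siCTRL libraries, and the means were 1.91 ± 0.170 and 6.08 ± 1.44 FPKM (SD, n = 2 each). The log2 difference was -1.60 (standard error 0.26) on the log2(FPKM + 0.1) scale, on which differences of low genes are understated. As these are bulk libraries, fewer cells making *FGF9* and less *FGF9* RNA per cell cannot be told apart.

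*FGF2*, a broadly made mitogen that leaves cells without a signal peptide, did not separate the *ZMAT3* groups. It measured 4.18, 4.22 and 4.15 log2 CPM in *ZMAT3*-WT and 4.18, 4.21 and 4.10 log2 CPM in *ZMAT3*-KO libraries, a log2 difference of -0.02 (standard error 0.048). In the siRNA libraries it was the lowest of the 9 genes, with 1.21 and 1.74 FPKM for siCTRL and 0.97 and 0.59 FPKM for sip53. The sip53 values were lower without overlap, and the log2 difference was -0.85 (standard error 0.39), or -0.48 with a pseudocount of 1 FPKM. Its antisense neighbour *NUDT6* had a mean of 3.95 ± 0.417 FPKM with siCTRL and 3.48 ± 1.06 FPKM with sip53 (SD, n = 2 each), a log2 difference of -0.20 (standard error 0.28).

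For *FGF19* the *ZMAT3*-WT values were 3.76, 3.68 and 3.70 log2 CPM and the *ZMAT3*-KO values 3.72, 3.65 and 3.78 log2 CPM, which overlap (log2 difference 0.01, standard error 0.054). It was the highest ligand in the siRNA libraries, at 32.0 and 26.5 FPKM in siCTRL libraries against 21.0 and 22.6 FPKM in sip53 libraries. The groups did not overlap there, and the log2 difference was -0.42 (standard error 0.19). All 3 ligands were thus lower in both sip53 libraries than in either siCTRL library, as were 26.3% of all genes tested, and *FGF2* and *FGF19* were not called. *FGF9* was the ligand whose *ZMAT3* groups did not overlap, as in 64.2% of all genes.

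*FGFBP1* differed between the siRNA groups and overlapped between the *ZMAT3* groups. Its level was 9.53 and 9.54 FPKM in siCTRL libraries, and 52.7 and 55.4 FPKM in sip53 libraries. The replicates of each group lay close together, with means of 9.54 ± 0.00707 and 54.0 ± 1.96 FPKM (SD, n = 2 each), a 5.67-fold ratio of means. On the log2(FPKM + 0.1) scale the difference was 2.49 (standard error 0.17), and leaving out any 1 library gave 2.45 to 2.53. In *ZMAT3*-WT libraries it measured 2.82, 2.92 and 3.02 log2 CPM, and in *ZMAT3*-KO libraries 3.12, 2.91 and 3.11 log2 CPM. These values overlap, with a log2 difference of 0.13 (standard error 0.078).

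**Figure D1:**
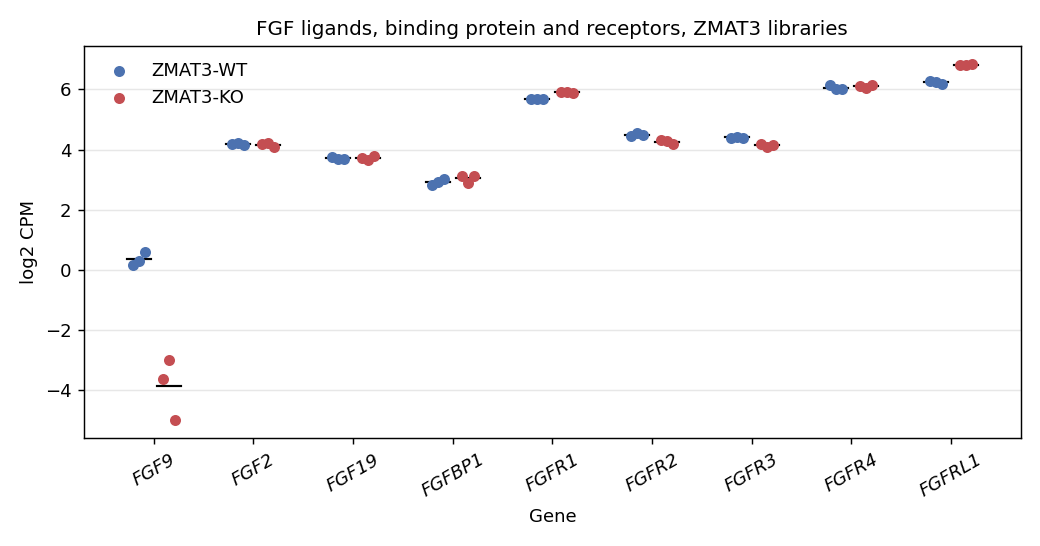
log2 CPM of the 9 genes (horizontal axis) in each of 3 *ZMAT3*-WT (blue) and 3 *ZMAT3*-KO (red) libraries, with points for libraries and black lines for group means. *FGF9* drops from 0.17 to 0.61 down to -4.98 to -2.99, *FGFRL1* and *FGFR1* lie higher and *FGFR2* and *FGFR3* lower in *ZMAT3*-KO libraries, and the other groups overlap; levels of different genes are not comparable on this scale.

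**Figure D2:**
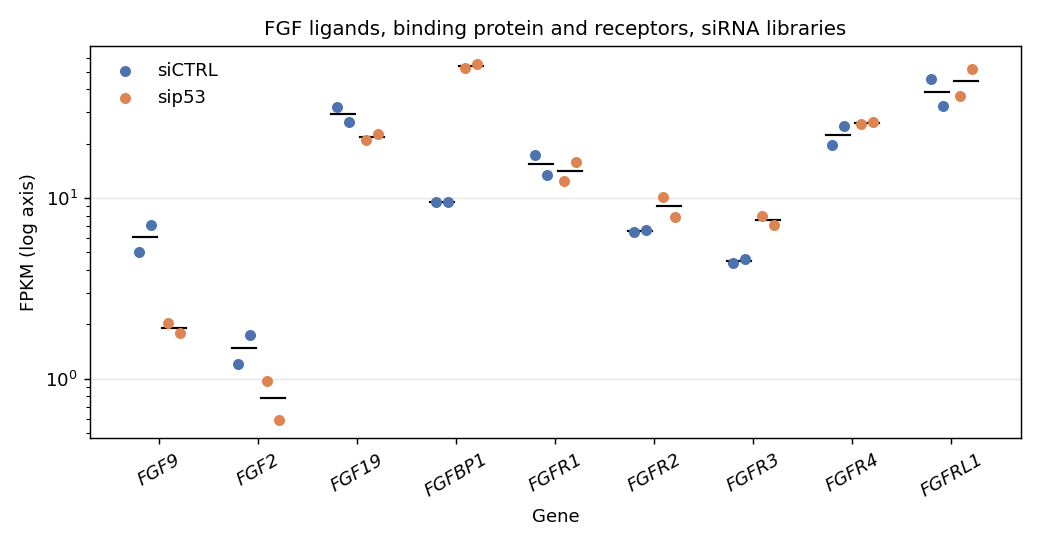
FPKM on a log axis for the 9 genes (horizontal axis) in each of 2 siCTRL (blue) and 2 sip53 (orange) libraries, with points for libraries and black lines for group means. *FGFBP1* moves from 9.53 and 9.54 to 52.7 and 55.4 FPKM, while the points of *FGF9*, *FGF2* and *FGF19* are lower and those of *FGFR2*, *FGFR3* and *FGFR4* higher with sip53.

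Among the receptors *FGFR1* was slightly higher in *ZMAT3*-KO cells, at 5.92, 5.92 and 5.89 log2 CPM against 5.70, 5.70 and 5.68 log2 CPM in *ZMAT3*-WT cells. The groups did not overlap, and the log2 difference was 0.22 (standard error 0.032), or 1.16-fold higher. Reads of *LETM2* on the opposite strand may enter here: it had 3.43 ± 0.119 log2 CPM in *ZMAT3*-WT and 2.62 ± 0.0892 log2 CPM in *ZMAT3*-KO cells (SD, n = 3 each), the other direction. With p53 knockdown *FGFR1* had 12.4 and 15.8 FPKM, against 17.3 and 13.4 FPKM with siCTRL, and the groups overlapped (log2 difference -0.12, standard error 0.23). In these libraries *LETM2* had 18.8 ± 7.15 FPKM with siCTRL and 17.6 ± 6.66 FPKM with sip53 (SD, n = 2 each), so its reads may enter here too.

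*FGFR2* and *FGFR3*, whose epithelial splice forms receive FGFs from neighbouring stroma, were lower in *ZMAT3*-KO and higher in sip53 libraries. *FGFR2* went from 4.45, 4.54 and 4.49 to 4.31, 4.31 and 4.18 log2 CPM, a log2 difference of -0.23 (standard error 0.050). *FGFR3* went from 4.4, 4.42 and 4.4 to 4.19, 4.10 and 4.15 log2 CPM, a log2 difference of -0.26 (standard error 0.045). Neither gene's *ZMAT3* groups overlapped. With sip53 *FGFR2* had 10.1 and 7.83 FPKM against 6.45 and 6.68 FPKM, and *FGFR3* 7.93 and 7.10 FPKM against 4.39 and 4.61 FPKM. Both sip53 values of each were higher than both siCTRL values, with log2 differences of 0.44 (standard error 0.21) for *FGFR2* and 0.73 (standard error 0.19) for *FGFR3*. The values are per gene, so splice forms were not distinguished.

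*FGFR4*, the receptor of FGF19, was 6.14, 6.03 and 6.03 log2 CPM in *ZMAT3*-WT and 6.12, 6.06 and 6.14 log2 CPM in *ZMAT3*-KO libraries. These values overlap (log2 difference 0.04, standard error 0.039). In the siRNA libraries it measured 19.7 and 25 FPKM for siCTRL, and 25.7 and 26.4 FPKM for sip53, where the groups are separated by less than the distance between the siCTRL libraries (log2 difference 0.23, standard error 0.20). *FGFRL1* was 6.27, 6.26 and 6.19 log2 CPM in *ZMAT3*-WT and 6.83, 6.80 and 6.86 log2 CPM in *ZMAT3*-KO libraries, well apart. Its log2 difference was 0.59 (standard error 0.033), or 1.5-fold, which lies on the fold threshold used for calls. Without *ZMAT3*-WT replicate 3 or without *ZMAT3*-KO replicate 3 it fell under that threshold, with 0.56 as the lowest value when any 1 library was left out. In the siRNA libraries *FGFRL1* measured 45.4 and 32.2 FPKM for siCTRL, and 36.9 and 51.7 FPKM for sip53, a spread within groups as wide as that between them.

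**Figure D3:**
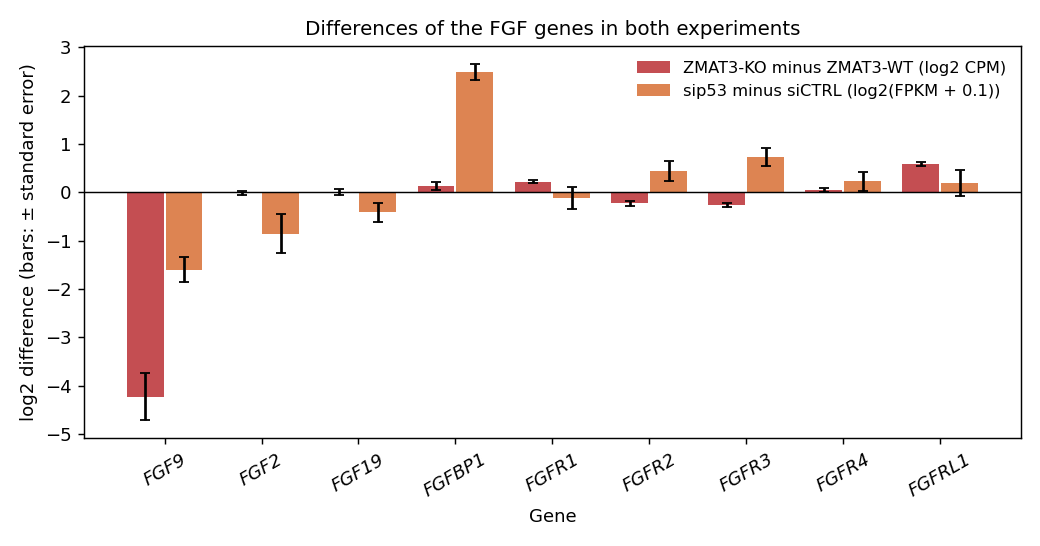
log2 difference of each of the 9 genes (horizontal axis) for *ZMAT3*-KO minus *ZMAT3*-WT on the log2 CPM scale (red) and for sip53 minus siCTRL on the log2(FPKM + 0.1) scale (orange), with standard errors as error bars. *FGF9* is below 0 in both (-4.22 and -1.60), *FGFBP1* is at 2.49 with sip53 and 0.13 in *ZMAT3*-KO cells, and *FGFR2* and *FGFR3* have opposite signs in the experiments.

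The call rule of the *ZMAT3* experiment asked for 0.05 in limma's adjusted p and for 1.5-fold in size, a rule that 8.96% of all genes met. Of the 9 genes 2 met it, *FGFRL1* higher and *FGF9* lower, and nothing is read from this count since the genes were chosen with these differences known. Groups did not overlap for 5 of the 9 genes, 2 higher and 3 lower, against 64.2% of all genes (31.3% higher and 32.9% lower). An adjusted p of 0.05 alone was met by the same 5, against 58.8% of all genes. In the siRNA experiment an unadjusted limma p of 0.05 was met by 15.1% of the 14274 genes tested and by 3 of the 9, *FGFBP1* and *FGFR3* higher and *FGF9* lower. There 7 of the 9 had groups that did not overlap, 4 higher and 3 lower, against 46.4% of all genes (20.1% higher and 26.3% lower). With the adjusted p held to 0.05, a limit met by 0.273% of all genes (0.035% higher and 0.238% lower), only *FGFBP1* was called. The median log2 difference of the 9 genes was 0.01 in *ZMAT3*-KO cells (-0.01 over all genes) and 0.19 with sip53 (-0.04 over all genes). Without siCTRL replicate 1, siCTRL replicate 2 or sip53 replicate 1 the call of *FGFR3* was lost, its log2 difference staying between 0.65 and 0.80.

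FPKM are scaled to length, so levels of different genes could be set beside each other in the siRNA libraries. Reads of the overlapping *LETM2* and *NUDT6* may enter the values of *FGFR1* and *FGF2*. In siCTRL cells the order of the means was *FGFRL1* (38.8 ± 9.30 FPKM), *FGF19* (29.2 ± 3.86), *FGFR4* (22.3 ± 3.71), *FGFR1* (15.4 ± 2.76), *FGFBP1* (9.54 ± 0.00707), *FGFR2* (6.57 ± 0.163), *FGF9* (6.08 ± 1.44), *FGFR3* (4.50 ± 0.156) and *FGF2* (1.48 ± 0.375; SD, n = 2 each, in FPKM). Of the neighbours in this order, *FGFR2* and *FGF9* overlapped and the other pairs did not, with only 2 libraries each. With sip53 *FGFBP1* stood first at 54.0 ± 1.96 FPKM, before *FGFRL1* at 44.3 ± 10.5 FPKM. *FGF9* moved behind *FGFR3*, and *FGFR4* came before *FGF19*. *FGFR2* and *FGFR3* were then the only neighbours that overlapped.

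The 4 kinase receptors together reached 47.9 and 49.7 FPKM in siCTRL libraries against 56.2 and 57.1 FPKM in sip53 libraries. *FGFR4* held the largest share in every library, 41.2% and 50.3% with siCTRL and 45.7% and 46.2% with sip53. The share of *FGFR3* was 9.17% and 9.28% with siCTRL and 14.1% and 12.4% with sip53. *FGFR1* took 36.2% and 27.0% in the siCTRL libraries and 22.1% and 27.6% in the sip53 libraries, which overlap. Reads of *LETM2* may enter the *FGFR1* values and so all the shares. Over 2 libraries per group these shares were not tested.

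**Figure D4:**
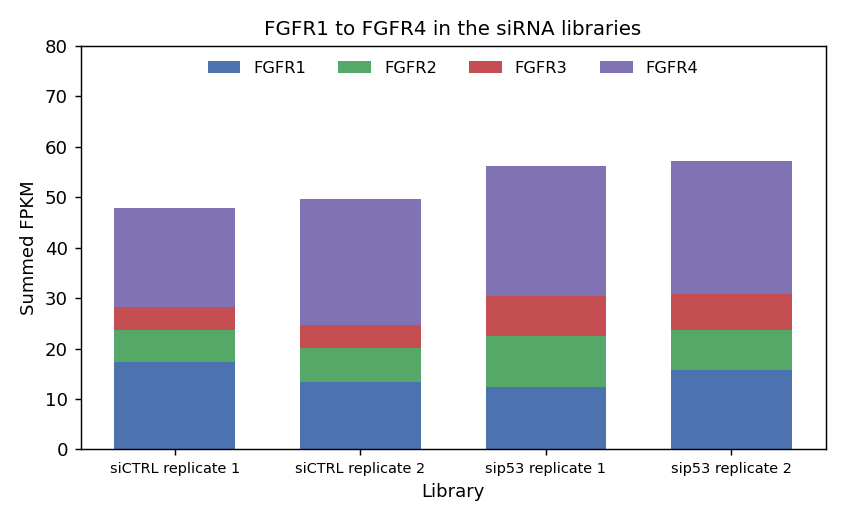
Summed FPKM of *FGFR1* to *FGFR4* (vertical axis, from 0) stacked by receptor in each of the 4 siRNA libraries (horizontal axis), with no error bars because each bar is 1 library. The totals are 47.9 and 49.7 FPKM in siCTRL libraries against 56.2 and 57.1 FPKM in sip53 libraries, and the *FGFR4* segment is the largest in each.

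The rest of the pathway was described with 97 genes in 5 lists, written from general knowledge but with earlier results of these data known. Limma's p-values for these genes belong to single genes named for the size of their differences, so they are no independent evidence. In *ZMAT3*-KO cells 62 of the 97 genes had values. By the call rule with its fold threshold 5 rose and 7 fell, beside 4.6% and 4.37% of all genes in each direction. Their median log2 difference was 0.06. The only other ligand with values was *FGF11*, an intracellular FGF that does not signal through the receptors. Its mean rose from 0.32 ± 0.265 (SD, n = 3) to 1.06 ± 0.323 on the log2 CPM scale (log2 difference 0.75, limma adjusted p = 0.00431), a call lost without *ZMAT3*-KO replicate 1 (0.56).

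Among 9 co-receptors, carriers and proteoglycans in *ZMAT3*-KO cells (median log2 difference -0.05), 1 rose and 1 fell by this rule. The adjusted p alone passed 0.05 for 3 higher and 3 lower genes, beside 28.7% and 30.1% of all genes. *FLRT3*, a membrane protein that binds FGF receptors, was at the lowest value of the table, -6.62 log2 CPM, in all 3 *ZMAT3*-WT libraries. In the *ZMAT3*-KO libraries it was 0.31, 0.60 and 0.30 log2 CPM, at least 18.6-fold higher than the level of 3 reads per library taken as the floor (limma adjusted p = 9.39e-07). *SDC4*, a heparan sulfate proteoglycan that presents FGF2, fell by 0.63 from a mean of 6.63 log2 CPM (standard error 0.033, adjusted p = 6.83e-09 with limma). *KL* and *KLB*, the Klotho genes, were not analysed here. Of 13 heparan sulfate enzymes (median 0.14) the adjusted p alone passed 0.05 for 6 higher and 2 lower genes. The shares of all genes at that p were again 28.7% and 30.1%, and 1 of these enzymes also passed the fold threshold. *SULF2*, which removes sulfate groups that FGFs need for binding, fell by 1.13 from a mean of 4.01 log2 CPM (standard error 0.056, adjusted p = 4.41e-09 with limma).

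Downstream of the receptors, 20 adaptors and effectors had a median log2 difference of 0.13 in *ZMAT3*-KO cells, with 1 rising and 1 falling past the threshold. *GAB1*, a docking protein that recruits PI3K, rose 1.86-fold from a low level (log2 difference 0.89, limma adjusted p = 0.0004), and the adaptor *FRS3* fell by 0.67 on the log2 scale (adjusted p = 0.000477). At an adjusted p of 0.05 without a fold threshold, 13 of the 20 were higher and 2 lower, beside 28.7% and 30.1% of all genes.

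Of 19 feedback and target genes of FGF signalling, which many receptors besides these also induce, 2 rose and 4 fell in *ZMAT3*-KO cells (median -0.20). The ERK phosphatase genes *DUSP5* and *DUSP6* fell by 1.05 and 0.85 on the log2 scale (limma adjusted p = 3.04e-10 and 5.47e-10). *IER3* fell by 0.81 (adjusted p = 9.27e-10), and *DUSP4*, named after its value was seen, by 0.66. The ETS factor *ETV5* rose by 0.67 (adjusted p = 2.1e-09), and *SPRED3*, an inhibitor of RAS signalling, by 0.74 (adjusted p = 0.000879). Without the fold threshold 5 of the 19 were higher and 11 lower, beside 28.7% and 30.1% of all genes. The summed colon epithelial markers were lower in the same *ZMAT3*-KO libraries (3160 to 3242 against 5757 to 6083 CPM), and their part in these differences was not tested. With a pseudocount of 1 CPM the low genes had smaller log2 differences, of 0.46 for *FGF11*, 0.53 for *GAB1*, 0.47 for *SPRED3*, -0.44 for *FRS3* and 1.2 for *FLRT3*, and all but *FLRT3* of these lost the call.

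With sip53, 63 of the 97 genes were tested, and at an unadjusted limma p of 0.05 4 rose and 12 fell, beside 5.86% and 9.28% of all genes. Their median log2 difference was -0.08. None of the 63 passed an adjusted p of 0.05 in limma. Centring the libraries on their median genes took away a shift of -0.076, after which 7 rose and 10 fell, and over all genes 1120 rose and 1048 fell, in place of 836 and 1325. Of the 16 calls, 5 held whichever 1 library was left out, those of *SULF2*, *HSPG2*, *SPRED3*, *DUSP5* and *CCND1*. *NDST1* and *SPRED2* lost the call without any 1 of the 4 libraries. *GLCE*, *GPC2* and *FGF11* lost it without siCTRL replicate 1, siCTRL replicate 2 or sip53 replicate 1, and *FRS2* without siCTRL replicate 1, siCTRL replicate 2 or sip53 replicate 2. *GPC3* and *SHC1* lost it without siCTRL replicate 1 or sip53 replicate 1, *EXTL3* without siCTRL replicate 2 or sip53 replicate 2, and *CBLB* and *FGFBP3* without siCTRL replicate 1. Over these removals the log2 differences were -1.26 to -0.46 for *FRS2*, 0.92 to 1.67 for *GPC3*, -1.18 to -0.67 for *SHC1* and -1.10 to -0.63 for *EXTL3*, the widest ranges among these 11 genes.

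*SULF2* went from 22.8 and 17.5 FPKM with siCTRL to 5.70 and 8.74 FPKM with sip53 (log2 difference -1.49, limma adjusted p = 0.124), so it was called lower in both experiments. *HSPG2*, the gene of the matrix proteoglycan perlecan, went from 36.4 and 26 to 9.65 and 15.8 FPKM (log2 difference -1.31, limma adjusted p = 0.174). The other heparan sulfate enzymes called among 13 were *EXTL3* (-0.86) and *NDST1* (-0.47), which fell, and *GLCE* (0.55), which rose, and the list had a median of -0.06. Among 9 co-receptors, carriers and proteoglycans (median -0.24) *FGFBP3*, a relative of *FGFBP1*, fell from 1.16 and 0.87 FPKM to 0.30 FPKM in both sip53 libraries (log2 difference -1.47, limma adjusted p = 0.219), and with a pseudocount of 1 FPKM the difference was -0.63. *GPC3* and *GPC2*, glypicans that carry heparan sulfate, rose by 1.3 and 0.78 on the log2 scale, or 0.81 and 0.53 with that pseudocount.

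Among 20 adaptors and effectors (median -0.13) the sip53 libraries had 3 calls, all lower. *FRS2*, the main FGF receptor adaptor, went from 9.48 and 11.0 to 7.41 and 4.21 FPKM (log2 difference -0.86, limma adjusted p = 0.292). *SHC1* (-0.92) and *CBLB* (-0.79) were the other calls. Of 19 feedback and target genes (median 0.00) 1 rose and 3 fell. *DUSP5* rose from 31.7 and 38.8 to 118 and 83.9 FPKM (log2 difference 1.5, limma adjusted p = 0.107), whereas it fell in *ZMAT3*-KO cells. *SPRED3* fell from 1.85 and 1.64 to 0.37 and 0.43 FPKM (log2 difference -1.88, adjusted p = 0.123 from limma, and -0.97 with a pseudocount of 1 FPKM), whereas it rose in *ZMAT3*-KO cells. *CCND1*, the gene of cyclin D1, fell by 0.95 on the log2 scale and *SPRED2* by 0.54. *FGF11* fell by 0.84 on the log2 scale, whereas it rose in *ZMAT3*-KO cells.

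**Figure D5:**
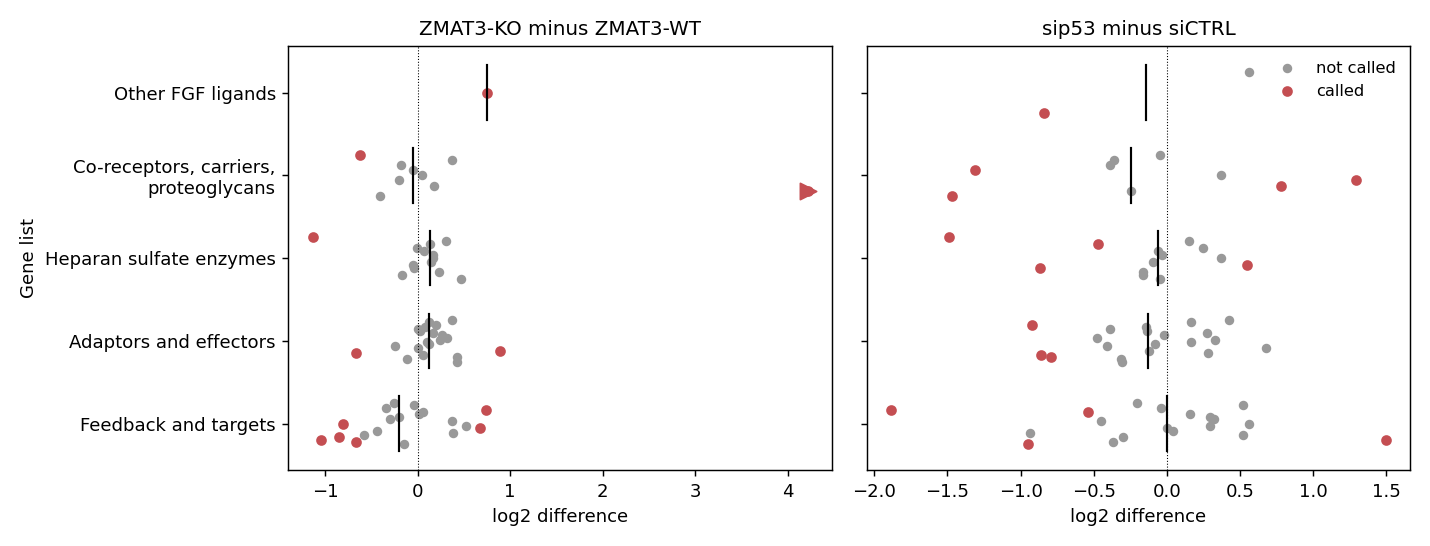
log2 difference (horizontal axis) of each other FGF pathway gene by list, for *ZMAT3*-KO minus *ZMAT3*-WT (left) and sip53 minus siCTRL (right). Red points met the call rule of the experiment, grey points did not, black bars are list medians, and the red triangle is *FLRT3* at its lower bound of 4.22. Calls lie on both sides of 0 in both panels, with *DUSP5* at -1.05 on the left and 1.5 on the right.

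The nearest genes with values on either side of each locus were also compared. Neighbours were matched to the annotation by gene symbol among the genes tested, so a closer gene listed under another symbol was passed over. All called neighbours found in this way are named below, and those found but not named were not called. Over all genes the call rules were met by 8.96% in the *ZMAT3* experiment and 15.1% in the siRNA experiment, and nothing is read from the calls of neighbours. *FGF19* lies 281885 bases from *ANO1*, a chloride channel gene, which fell by 1.66 in *ZMAT3*-KO cells (limma adjusted p = 1.43e-11) and by 1.27 with sip53 (limma adjusted p = 0.0886) on the log2 scale. On the other side its nearest matched neighbour was *LTO1* in the *ZMAT3* experiment, 22822 bases away, which was not called. *LTO1* was not found under that symbol among the genes tested with sip53, where the nearest match was *CCND1*, given above, 43764 bases away. Next to *FGFRL1*, at 5372 bases, *IDUA*, a lysosomal enzyme that degrades heparan sulfate, rose by 0.97 in *ZMAT3*-KO cells (limma adjusted p = 0.000301) and fell by 1.3 with sip53 (limma adjusted p = 0.123). *PROM1*, 24336 bases from *FGFBP1*, had a log2 difference of 0.22 with sip53 and was not called. *TACC3*, 48122 bases from *FGFR3*, rose by 0.58 with sip53 (limma adjusted p = 0.256), a call made on the unadjusted p as for the others. *LETM1*, 2607 bases from *FGFR3* on the other side, had a log2 difference of -0.17 with sip53 and was not called. *MICU2*, the *FGF9* neighbour at 66892 bases, had a log2 difference of -0.27 in *ZMAT3*-KO cells and was not called.

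The genes with the most similar pair of log2 differences, by Euclidean distance over 11370 genes tested in both experiments, were listed for each ligand and for *FGFBP1*. For *FGF9* these were *KRT23* (-4.01 in *ZMAT3*-KO cells and -1.38 with sip53), *KRTAP2-3* (-3.97 and -1.06) and *CYP24A1* (-4.58 and -1.11), at distances of 0.308 to 0.607. This match rests on the uncertain -4.22 of *FGF9* in *ZMAT3*-KO cells, which was -1.09 with a pseudocount of 1 CPM, and it was not repeated on that scale. For *FGFBP1* they were *CD27-AS1* (0.23 and 2.40), *MSANTD3-TMEFF1* (0.22 and 2.65) and *RNASE4* (0.14 and 2.21), at distances of 0.136 to 0.285. *FGF2* lay within 0.0102 of *ATP10D*, *BLOC1S2* and *PIGB*, and *FGF19* within 0.00875 of *C1orf216*, *RNF185* and *RAB8B*, in a part of the plane where many genes lie.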

How the data were processed

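The members and lists were chosen with earlier results of these data known. In the *ZMAT3* experiment reads passed through Cutadapt, STAR (hg38) and RSEM. The authors deposited log2 CPM values for it, without saying how RSEM's estimates became CPM, and the 6 libraries share one distribution of values. For the siRNA libraries the deposited values were read as FPKM from the values themselves, since the file names no unit, and their quantification is not given in the sources used here. The submitters' processing notes name CASAVA 1.8.2, TopHat2 2.0.8 and FastQC 0.11.2 for all samples, with the builds hg19 and hg38 and no role. The deposited tables also hold the authors' own comparisons (fold changes, p-values, test statistics and a mean per gene), and none of these was used.

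Samples were grouped by their titles, and each table was fitted alone with limma 3.58.1 in R 4.3.3 (two-sided, variance trend, Benjamini-Hochberg adjustment over all genes). The *ZMAT3* fit used the log2 values of 13029 genes. The siRNA fit took the 14274 genes whose mean reached 0.5 FPKM, as log2(FPKM + 0.1). Calls followed the paper's thresholds, an adjusted p of 0.05 with a 1.5-fold change and an unadjusted p of 0.05. The *ZMAT3* libraries were biological replicates per the paper. Since the *ZMAT3*-KO libraries stand for 1 clone, p-values of that experiment measure the spread between these libraries and not between *ZMAT3*-KO clones. For the siRNA RNA-seq the paper speaks of independent experiments, but 2 libraries per group were used here and the labels do not tie them to cultures, so p-values there measure the spread between these libraries. Named genes are the 9 members, up to 3 called genes per list and direction, the nearest 3 genes in pattern, and the nearest neighbour on each side. Fits were tested on simulated data. Coordinates are from GENCODE release 44 and promoters from RefSeq. Alternatives were the pseudocount, filters, centring, variance trend, replicate block, thresholds and leaving out each library. Python 3.11.15, pandas 2.3.3, numpy 2.4.6 and matplotlib 3.10.9 were used. The level of the gene targeted by the siRNA pool is not reported here.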

Additional observations from a re-analysis of the deposited data

How the results depend on the processing

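With a pseudocount of 1 CPM, 0 of the 9 FGF genes were called higher and 2 of the other pathway genes in *ZMAT3*-KO cells. At a 2-fold threshold 0 of the 9 were higher, and the other pathway genes gave 1 higher and 2 lower. With a mean of at least 0 log2 CPM required, *FGF9* was not tested and 0 of the other 8 were lower. Each library left out in turn gave 0 to 1 of the 9 higher, 1 lower, 4 to 5 other pathway genes higher and 7 to 8 lower. In the siRNA experiment the replicate block left 1 of the 9 higher and 2 other pathway genes higher, and with a mean of at least 5 FPKM required, which left *FGF9* and *FGF2* untested, 0 of the other 7 were lower and 2 other pathway genes higher. Without a variance trend 2 of the 9 were lower, with *FGF2* added. Centring on the median gene gave 7 other pathway genes higher. At an adjusted p of 0.05 in limma 1 of the 9 was higher and 0 lower, and 0 other pathway genes were higher or lower. Leaving out each library gave 1 to 2 of the 9 higher, 1 to 2 lower, 1 to 5 other pathway genes higher and 5 to 11 lower.

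Whether the replicate numbers pair the libraries is not stated and could not be settled from the values. Same-numbered *ZMAT3* libraries had correlations of their deviations between -0.093 and -0.022 over genes, and no library correlated best with its own number. In the siRNA experiment this correlation was -0.62. With 2 libraries per group either pairing gives this size and only the sign differs, so it cannot decide between them. A crossed pairing, chosen after seeing the data, called 38.8% of all genes. It gave 3 of the 9 higher and 3 lower (*FGF19*, *FGF2* and *FGFR2* added), and 16 other pathway genes higher and 22 lower. The block by replicate number changed no other count of the 9 genes or the other pathway genes by more than 1.5 times. Over all genes in the siRNA experiment it called 434 higher and 650 lower, in place of 836 and 1325. None of the alternatives reversed a called difference. The cause of these changes was not tested, except that the filters remove genes. Without read counts, the depth behind the values is unknown.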
